A study of Mus musculus with 2 samples.

Results

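The serpin superfamily was compared between 2 liver RNA libraries, clade by clade. Its members were the rows of the authors' deposited gene table whose symbol begins with Serpin, a clade letter from a to i and a digit, and 62 of 23283 gene rows are described. Libraries were made from perfused livers of C57Bl/6 male mice aged 6 months. Mice of the first group were labelled Akt1F/F;Akt2-/-;Alb-Cre, and those of the control group Akt1F/F;Akt2-/-. By these labels all mice had both Akt2 alleles deleted and carried floxed Akt1, and the groups differ by Alb-Cre, in which the albumin promoter aims the Cre recombinase at hepatocytes; the labels call the first group Akt1hep-/-Akt2-/-. Akt1 and Akt2 encode kinases that act downstream of the insulin receptor. Each genotype is 1 library made from the pooled mRNA of 4 livers, so no value below has an error between mice, and no difference has a replicate check or a p-value of its own.

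Serpins are proteins of a shared fold, most of which trap a protease when it cuts an exposed stretch called the reactive centre loop. The liver secretes many of them into plasma, where they hold back elastase, clotting enzymes, plasmin and complement proteases. Some members inhibit no protease and act instead as hormone carriers or chaperones, and clade B serpins mostly stay inside the cell, where they protect it from its own or incoming proteases. Insulin and growth hormone signalling, glucocorticoids and inflammatory cytokines are all known to act on liver genes for secreted proteins.

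Mouse liver uses several near-identical copies of the gene for alpha-1-antitrypsin. Human genomes carry it as a single gene, whose product inhibits neutrophil elastase. Their sequences are shown first because the values of Serpina1a to Serpina1e depend on telling the copies apart. Coding sequences of the 5 copies were 96.3% to 98.5% identical in pairs, and they differed at 86 of the 1239 positions aligned in all 5. Serpina1a has 69 more coding bases than the others. Among coding stretches of 60 bases aligned without gaps in all 5 copies, the one with the most differences held 18 differing positions, against a median of 4. It lies in the part that encodes the reactive centre loop. These 60 bases are given below 5′ to 3′, with capitals at the positions where the copies are not all alike. They come from GENCODE vM21 transcripts on mm10, on the minus strand, at chr12:103853757-103853816 for Serpina1a, chr12:103728324-103728383 for Serpina1b, chr12:103895094-103895153 for Serpina1c, chr12:103763762-103763821 for Serpina1d, chr12:103947100-103947159 for Serpina1e.
Serpina1a: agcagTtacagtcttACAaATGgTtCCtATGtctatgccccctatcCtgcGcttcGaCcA
Serpina1b: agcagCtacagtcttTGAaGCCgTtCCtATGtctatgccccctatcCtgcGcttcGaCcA
Serpina1c: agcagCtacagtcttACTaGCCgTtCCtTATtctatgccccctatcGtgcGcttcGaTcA
Serpina1d: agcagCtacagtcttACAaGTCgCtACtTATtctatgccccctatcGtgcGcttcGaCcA
Serpina1e: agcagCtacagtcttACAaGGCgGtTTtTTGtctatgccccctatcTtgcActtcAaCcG

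The copies also have closely similar promoters. Upstream sequences of 120 bases, taken from RefSeq on build GRCm38.p6 and ending before the first of the 5 annotated starts in the alignment, were 94.2% to 98.3% identical in pairs. Capitals again mark the 10 positions where the copies are not all alike. The stretches lie on the minus strand at chr12:103863625-103863744 for Serpina1a, chr12:103738200-103738319 for Serpina1b, chr12:103904962-103905081 for Serpina1c, chr12:103773634-103773753 for Serpina1d, chr12:103956960-103957079 for Serpina1e.
Serpina1a: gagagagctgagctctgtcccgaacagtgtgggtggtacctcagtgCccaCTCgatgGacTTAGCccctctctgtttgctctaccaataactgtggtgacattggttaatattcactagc
Serpina1b: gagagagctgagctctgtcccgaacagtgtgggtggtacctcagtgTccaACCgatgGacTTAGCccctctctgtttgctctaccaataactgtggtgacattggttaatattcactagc
Serpina1c: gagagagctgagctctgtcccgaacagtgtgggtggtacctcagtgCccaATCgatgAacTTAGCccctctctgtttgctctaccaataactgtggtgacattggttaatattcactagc
Serpina1d: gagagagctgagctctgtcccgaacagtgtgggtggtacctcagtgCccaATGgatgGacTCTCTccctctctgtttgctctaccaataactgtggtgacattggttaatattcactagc
Serpina1e: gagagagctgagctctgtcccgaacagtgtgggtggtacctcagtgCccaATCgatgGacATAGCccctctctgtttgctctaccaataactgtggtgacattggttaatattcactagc

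Of the 62 members, 37 had status OK in the authors' deposited table, 24 were not tested by the authors for low data, and Serpina3k had a failed status. A gene was called measured here with status OK and 1 FPKM or more in at least 1 library, FPKM being a gene's fragments relative to its transcript length and to the size of the library. This left 27 serpins among 11406 measured genes. Each log2 ratio sets the Alb-Cre value over the control value after adding 1 FPKM to both, a step that shrinks the ratios of low genes. Genes whose log2 ratio reached 1 in either direction (2-fold) were counted as higher or lower. Serpinb6b passed the minimum only through the Alb-Cre library, where it is higher, so that passing it favours a difference. The lowest values stepped by 0.00664 FPKM per fragment in 1 kb in the Alb-Cre library and by 0.00740 in the control library, which puts the Alb-Cre library at 1.12 times the control's depth if no other scaling was applied. On that basis each measured serpin rested on about 742 fragments or more in the Alb-Cre library and about 221 or more in the control library. Akt1 had 17.1 FPKM in the Alb-Cre library and 23.7 FPKM in the control library, and Akt2 had 33.5 FPKM in the Alb-Cre library and 37.5 FPKM in the control library. The level of Akt2, above that of Akt1 in both libraries, does not by itself show the loss that the labels give. These values cover whole genes and are a weak check of the genotypes.

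Among the 27 measured serpins, 4 had a level in the Alb-Cre library 2-fold or more above that of the control library, 5 were lower by as much and 18 lay between. Over all measured genes the shares were 3.75% higher and 1.83% lower. The higher serpins were Serpinb6a, Serpinb1a, Serpinb6b and Serpina3g, and the lower ones were Serpina4-ps1, Serpina1e, Serpine2, Serpina12 and Serpina1c. With libraries rescaled to the same FPKM sum, or with ratios centred on abundant genes, 6 serpins were higher and 4 lower. Of the called serpins 60% were then higher, against 44.4% as deposited. Of all called genes the share that was higher went from 67.2% to 75.4% with rescaled libraries and 78.0% with centred ratios. The median of all measured genes shifted by 0.10 and 0.13. The median log2 ratio of the measured serpins was -0.11, against -0.06 over all measured genes. Counts were also split by level. The split uses the compared values, so a gene that differs can fall under 10 FPKM in 1 library only, as Serpinb6a and Serpina12 did. It therefore does not show how counts depend on level alone. Of the 17 serpins with 10 FPKM or more in both libraries, 0 were higher and 3 were lower, where the shares over all genes of such levels were 1.53% and 2.32%. Of the 10 measured serpins under 10 FPKM in a library, 4 were higher and 2 were lower. Over all measured genes split in that way the shares were 5.46% and 1.46%.

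**Figure D1:**
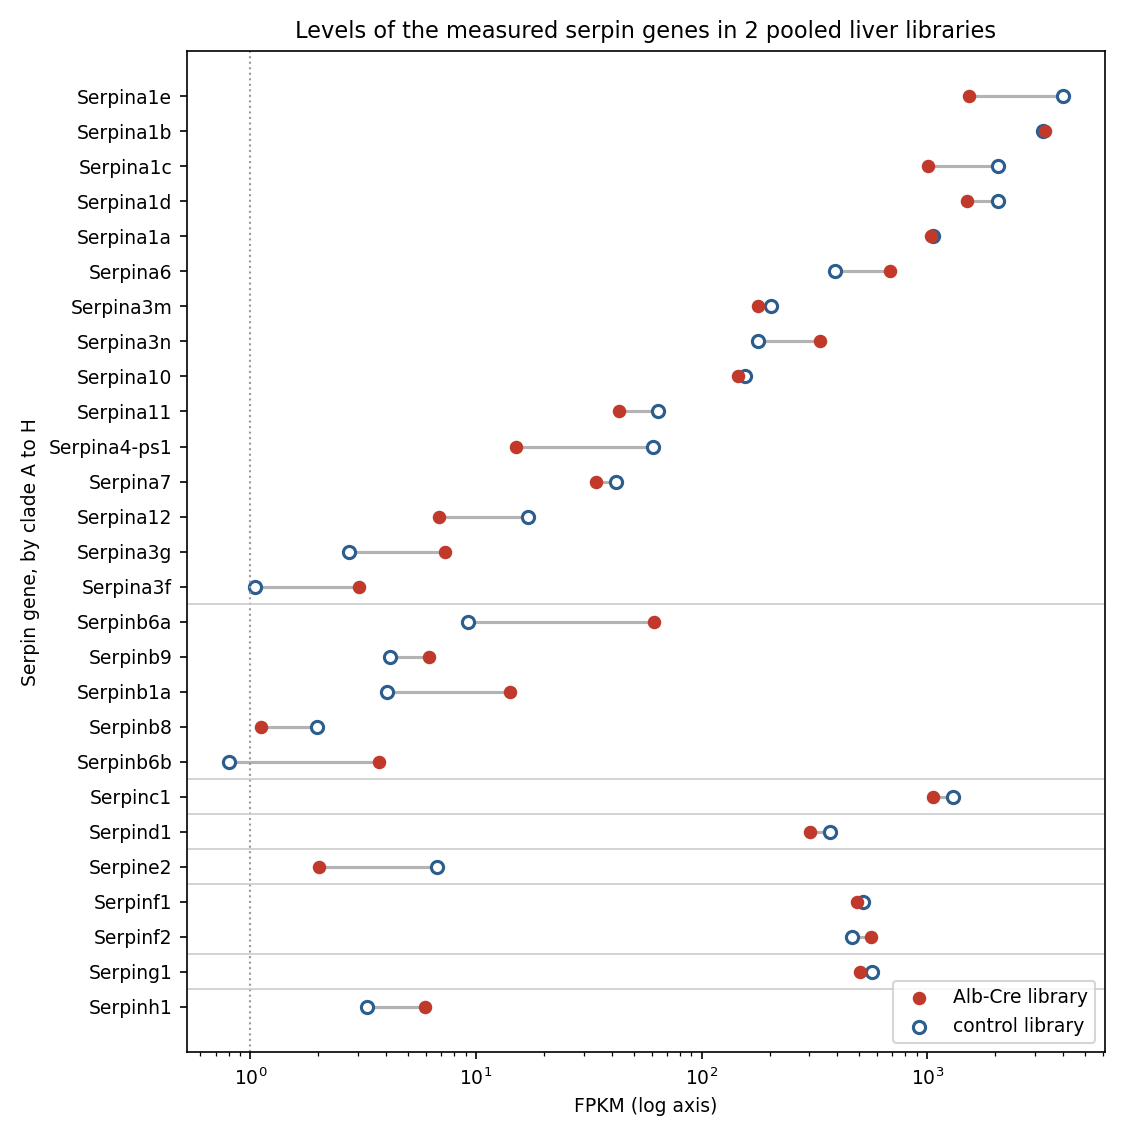
FPKM on a log axis of the 27 measured serpin genes, sorted within clades A to H by their control value, in the Alb-Cre library (filled red) and the control library (open blue); each point is 1 pooled library and the dotted line marks 1 FPKM. Among the serpins at 145 FPKM or more, the points lie close together except for Serpina1c, Serpina1d, Serpina1e, Serpina3n and Serpina6, while the wide gaps of clades B and E lie at lower levels.

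**Figure D2:**
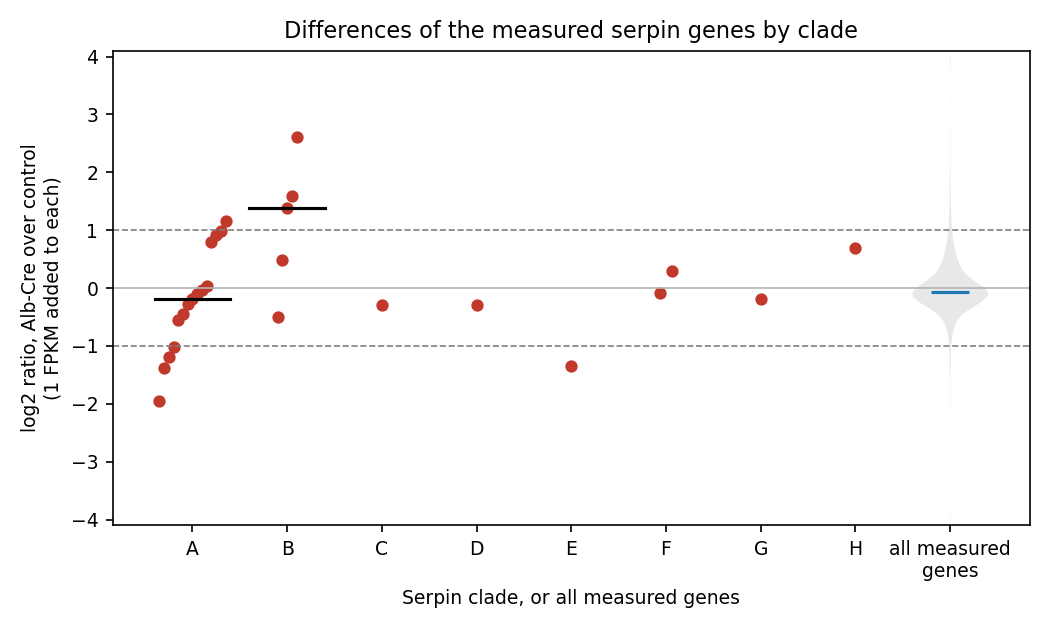
Log2 ratios of the measured serpins by clade letter, each red point 1 gene and the black bars the medians of clades A and B, beside the spread of all 11406 measured genes (grey, drawn at 4 where beyond 4 in size, with a line at the median). Clade B has a median of 1.38 and clade A of -0.19, and dashed lines mark 2-fold.

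Alpha-1-antitrypsin copies made up most of the summed FPKM of the measured serpins, which leave out Serpina3k, and their summed level was lower in the Alb-Cre library. Serpina1e (chromosome 12, 103946931 to 103958975, minus strand) had 1534 FPKM in the Alb-Cre library and 4000 FPKM in the control library, a log2 ratio of -1.38. Serpina1c (103894926 to 103904887, minus strand) had 1011 FPKM in the Alb-Cre library, against 2057 FPKM in the control library, a log2 ratio of -1.02 that became -0.90 with rescaled libraries and -0.89 with centred ratios. Serpina1e was the most abundant measured serpin of the control library, and Serpina1b that of the Alb-Cre library. Serpina1b had 3317 FPKM in the Alb-Cre library and 3251 FPKM in the control library, and Serpina1a had 1043 FPKM in the Alb-Cre library and 1063 FPKM in the control library. Both lay close to a ratio of 0, and Serpina1d (1508 FPKM in Alb-Cre, 2053 FPKM in control, log2 ratio -0.44) lay between these and the lower pair. Summed over the 5 copies, the level was 8414 FPKM in the Alb-Cre library and 12423 FPKM in the control library, a log2 ratio of -0.56. The copies differ in the part that encodes the reactive centre loop, so this sum need not stand for a single inhibitory activity. The sixth symbol of the group, Serpina1f, was listed at 0 in both libraries.

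Reads from copies this alike may have been divided between them by the authors' software, so the value of a single copy is less certain than the sum. Of all 50-base stretches in its transcripts, Serpina1c shared 79.3% with another annotated gene, Serpina1a 57.6%, Serpina1d 50.9%, Serpina1e 34.6% and Serpina1b 29.5%. At 100 bases the shares were 69.3% for Serpina1c and 14.4% for Serpina1e. The sources used here do not give the read length. Serpina1e, with the lowest ratio of the group, therefore had more sequence of its own than Serpina1c. The 60 bases printed above differ most among coding stretches aligned without gaps, and untranslated parts were not searched in that way.

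The antichymotrypsin-like Serpina3 copies, which inhibit serine and, for some members, cysteine proteases, leaned the other way where measured, with Serpina3k left out. Serpina3n, an acute phase inhibitor, had 335 FPKM in the Alb-Cre library and 177 FPKM in the control library (log2 ratio 0.92), under the 2-fold limit and at 1.04 with rescaled libraries and 1.05 with centred ratios. Serpina3m had 178 FPKM in the Alb-Cre library and 203 FPKM in the control library (-0.19). Serpina3g, described as an inhibitor of lysosomal cathepsins, had 7.30 FPKM in the Alb-Cre library and 2.73 FPKM in the control library (1.16). Its neighbour Serpina3f had 3.03 FPKM in the Alb-Cre library and 1.05 FPKM in the control library (0.98). That is just under 2-fold with 1 FPKM added to both, and 2.89-fold without it. Of the 4 measured copies 3 were thus above 0 and 1 was counted as higher. Over all measured genes 4695 of 11406 were above 0, and 3.75% were counted as higher. Serpina3f and Serpina3g were reported at 1 shared locus in the authors' deposited table, and 10.6% and 15.5% of their 50-base stretches occur in other genes, so their split is uncertain as well. Serpina3m shared 19.1%, with Serpina3k first among its partners, and its annotation overlaps that gene, which limits its value and the sum below. Coding sequences of Serpina3f, Serpina3g, Serpina3k, Serpina3m and Serpina3n were 80.2% to 91.7% identical in pairs, less than those of the Serpina1 copies. Serpina3k was listed at 2269 FPKM in the Alb-Cre library and at 0 in the control library with the status that marks too many fragments at a locus, so that its 0 is a failed estimate and no ratio was taken. Without it, the measured Serpina3 copies summed to 523 FPKM in the Alb-Cre library and 383 FPKM in the control library. The value listed for Serpina3k in the Alb-Cre library exceeds this sum, so the direction of the whole group is not known.

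**Figure D3:**
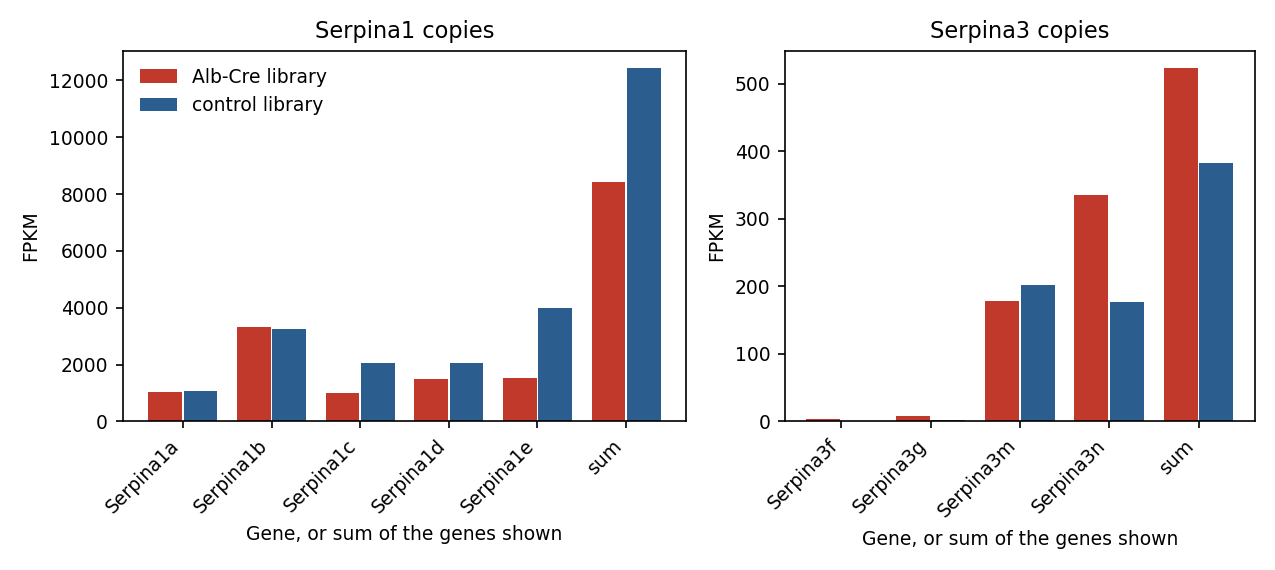
FPKM of the measured Serpina1 copies (left) and Serpina3 copies (right) and of their sums, in the Alb-Cre library (red) and the control library (blue), 1 pooled library per bar and axes from 0. The Serpina1 sum is 8414 against 12423 FPKM and the Serpina3 sum, without Serpina3k, is 523 against 383 FPKM.

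Other clade A members include hormone carriers, a clotting inhibitor and an adipokine. Serpina6, the corticosteroid-binding globulin of plasma, had 682 FPKM in the Alb-Cre library and 391 FPKM in the control library, a log2 ratio of 0.80. Serpina7, the thyroxine-binding globulin, had 34.1 FPKM in the Alb-Cre library, against 41.6 FPKM in the control library (-0.28). The carriers thus differed in sign, each by less than 2-fold. Serpina10, which inhibits factor Xa together with protein Z, had 145 FPKM in the Alb-Cre library and 156 FPKM in the control library (-0.11). Serpina11, a secreted serpin, had 43.0 FPKM in the Alb-Cre library and 63.8 FPKM in the control library (-0.56), with 35.7% of its 50-base stretches also in the overlapping transcript Gm28577. Serpina12 encodes vaspin, a serpin known for its link with insulin sensitivity (chromosome 12, 104028769 to 104044443, minus strand). It had 6.84 FPKM in the Alb-Cre library and 16.9 FPKM in the control library, a log2 ratio of -1.19 that was -0.89 with 5 FPKM added. Serpina4-ps1, an unprocessed pseudogene of the kallistatin gene (104080649 to 104086724, plus strand), had 15.0 FPKM in the Alb-Cre library and 61.0 FPKM in the control library. Its log2 ratio of -1.96 was the lowest among the measured serpins, and none of its 50-base stretches occurs in another annotated gene. It was also the only serpin of 37 with status OK with a call of difference in the authors' deposited table, at a q-value of 0.0109, where 0.673% of such rows had one. For the other serpins the authors' deposited table gave a q-value of 0.220 for Serpinb1a, 0.338 for Serpina12 and 0.999 for 31 serpins, Serpina1e and Serpinb6a among them. Those values compare the 2 libraries, not the genotypes.

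Clade A genes, Serpina7 on the X chromosome apart, lie in 1 cluster on chromosome 12, and their ratios are given in that order. Along the cluster, Serpina1c, Serpina1e, Serpina11, Serpina12 and Serpina4-ps1 follow each other with Serpina9, which was not measured, between them, and all 5 had log2 ratios of -0.56 or lower. Serpina6 lies toward 1 end, and Serpina3f, Serpina3g and Serpina3n toward the other; these 4 were the clade A genes above 0.5. The remaining measured genes of the cluster (Serpina10, Serpina1b, Serpina1d, Serpina1a and Serpina3m) lay between -0.44 and 0.03. Clade A as a whole had 1 of 15 measured genes higher and 4 lower, where 3.75% and 1.83% of all measured genes were. The lower genes include the near-identical copies Serpina1c and Serpina1e. Serpina1c fell under 2-fold with rescaled libraries (-0.90) and with centred ratios (-0.89). The clade had a median of -0.19, and the whole set of measured genes had one of -0.06.

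**Figure D4:**
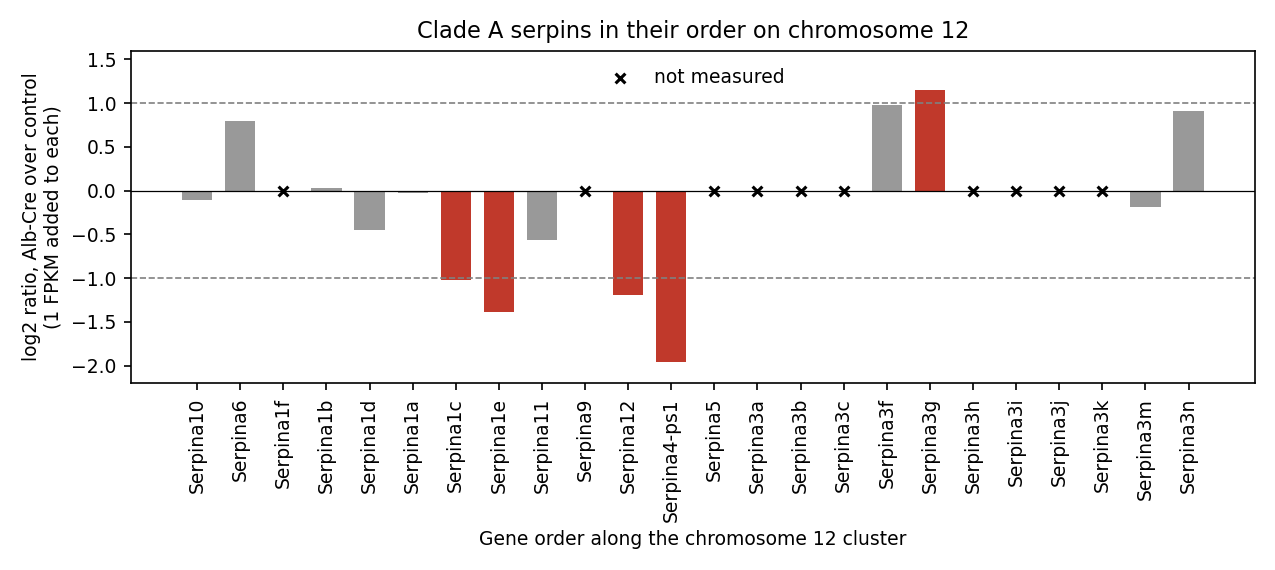
Log2 ratio, Alb-Cre over control, of the clade A serpins in their order along chromosome 12 (positions not to scale); red bars are at least 2-fold different, grey bars are not, and crosses are genes that were not measured. Serpina1c to Serpina4-ps1 form a run of negative bars, and Serpina3f, Serpina3g and Serpina3n are near or above 1.

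Clade B, the intracellular serpins, held the highest ratio of the family. Of 27 clade B rows only 5 were measured, and 3 of these were higher and 0 lower. All 5 were under 10 FPKM in a library, where 5.46% of measured genes were higher and 1.46% lower. Their median log2 ratio of 1.38 is the value of Serpinb6b, which passed the minimum only through the Alb-Cre library, and it was 1.04 with 1 FPKM required in both libraries. Serpinb6a, an inhibitor of cathepsin G found in many cell types (chromosome 13, 33917918 to 34002794, minus strand), had 61.4 FPKM in the Alb-Cre library and 9.25 FPKM in the control library, a log2 ratio of 2.61. Serpinb1a, an inhibitor of neutrophil elastase, cathepsin G and proteinase 3, had 14.1 FPKM in the Alb-Cre library and 4.01 FPKM in the control library (1.59). Serpinb6b, a close relative of Serpinb6a, had 3.70 FPKM in the Alb-Cre library and 0.799 FPKM in the control library (1.38). In the control library it rested on about 221 fragments, with an exact 95% Poisson interval of 193 to 252 that covers counting error only and rests on the depth estimate. Serpinb9, the inhibitor of granzyme B, had 6.18 FPKM in the Alb-Cre library and 4.16 FPKM in the control library (0.48). Serpinb8, whose human counterpart inhibits furin, had 1.11 FPKM in the Alb-Cre library and 1.98 FPKM in the control library (-0.50), and was the only measured clade B gene below 0. Of the 50-base stretches of Serpinb6a, 25.1% occur in other genes, Nqo2 first among them. Serpinb6a overlaps Nqo2, Ripk1 and the antisense gene 1110046J04Rik on the opposite strand, and the sources used here do not say whether the libraries kept strand. Nqo2 had 44.0 FPKM in the Alb-Cre library and 49.8 FPKM in the control library, and Ripk1 had 6.73 FPKM in the Alb-Cre library and 7.82 FPKM in the control library, so neither was higher. 1110046J04Rik was above 0 and within 2-fold, at 1.07 FPKM in the Alb-Cre library and 0.712 FPKM in the control library (0.275).

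Cells other than hepatocytes also express clade B serpins, and in bulk liver RNA a change in the number of such cells and a change in RNA per cell cannot be told apart. For each marker list below, the shares over all measured genes are 3.75% higher and 1.83% lower. Among measured genes under 10 FPKM in a library they are 5.46% and 1.46%. Of 15 measured macrophage and Kupffer cell markers 10 were higher by 2-fold or more and 0 lower. Their median log2 ratio was 1.19 and their summed levels 545 FPKM in the Alb-Cre library and 224 FPKM in the control library, and none was at 0. The neutrophil and mast cell markers had 3 measured genes of 12, with S100a8 and S100a9 higher, Mcpt4 at 0 in both libraries and summed levels of 19.2 FPKM in the Alb-Cre library and 4.58 FPKM in the control library. Lymphocyte markers had 1 of 5 measured genes higher, with sums of 15.4 FPKM in the Alb-Cre library and 4.23 FPKM in the control library. In the endothelial list 1 of 11 was higher, and sums were 163 FPKM in the Alb-Cre library and 116 FPKM in the control library. In the stellate cell list 0 of 11 differed by 2-fold, with sums of 219 FPKM in the Alb-Cre library and 130 FPKM in the control library. The part of these cells in the values of Serpinb1a, Serpinb6a, Serpinb6b and Serpina3g was not tested. Of 9 measured hepatocyte markers 1 was higher and 0 lower. Their median was -0.04 and their sums were 21490 FPKM in the Alb-Cre library and 21736 FPKM in the control library, while 5 more (Ahsg, Alb, Apoa1, Apob and Trf) had failed estimates of 0 in both and Apoa2 had a failed status, at 16227 FPKM in the Alb-Cre library and listed at 0 in the control library. Bile duct markers had 3 measured genes of 8, none different by 2-fold.

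In clade E, Serpine2 was lower in the Alb-Cre library. It encodes protease nexin 1, an inhibitor of thrombin and urokinase that sits at cell surfaces (chromosome 1, 79794197 to 79861180, minus strand). It had 2.02 FPKM in the Alb-Cre library and 6.68 FPKM in the control library, a log2 ratio of -1.35 that was -0.74 with 5 FPKM added. Serpine3 was under 1 FPKM, at 0.179 FPKM in the Alb-Cre library and 0.207 FPKM in the control library.

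The abundant plasma serpins of clades C, D, F and G lay within 2-fold, all 5 between log2 ratios of -0.29 and 0.29. Serpinc1, which encodes antithrombin, had 1065 FPKM in the Alb-Cre library and 1305 FPKM in the control library (-0.29), with 33.6% of its 50-base stretches in other genes, first among them Zbtb37, an overlapping gene on the opposite strand that had 0.969 FPKM in the Alb-Cre library and 0.999 FPKM in the control library. Serpind1, heparin cofactor II, had 304 FPKM in the Alb-Cre library and 370 FPKM in the control library (-0.29). Both thrombin inhibitors were thus below 0 and under the 2-fold limit. Serpinf2, alpha-2-antiplasmin, had 565 FPKM in the Alb-Cre library and 462 FPKM in the control library (0.29), and Serping1, the C1 inhibitor of complement and kallikrein, had 501 FPKM in the Alb-Cre library and 569 FPKM in the control library (-0.18). Serpinf1, the non-inhibitory pigment epithelium-derived factor, had 490 FPKM in the Alb-Cre library and 520 FPKM in the control library (-0.08). Serpinh1, the only clade H member and a collagen chaperone of the endoplasmic reticulum, had 5.92 FPKM in the Alb-Cre library and 3.30 FPKM in the control library (0.69). Clade I, the neuroserpin group, had no measured gene.

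With 1 FPKM added, the measured target proteases and receptors of serpins lay within 2-fold. Of 22 measured proteases that serpins are known to inhibit, 0 were higher and 0 lower, and the median log2 ratio was -0.20. The granzyme genes Gzma and Gzmb had the highest ratios (0.78 and 0.71) from low levels, with Gzma at 1.26 FPKM in the Alb-Cre library and 0.315 FPKM in the control library and Gzmb at 1.12 FPKM in the Alb-Cre library and 0.298 FPKM in the control library, and the elastase gene Cela1 the lowest (-0.68). Plg, which encodes the zymogen of plasmin, had 1061 FPKM in the Alb-Cre library and 1137 FPKM in the control library, and prothrombin, F2, had 972 FPKM in the Alb-Cre library and 1269 FPKM in the control library. Of 12 measured clearance receptors and cofactors, 0 differed by 2-fold with 1 FPKM added and the median was -0.32. Plaur, the urokinase receptor gene, had 1.25 FPKM in the Alb-Cre library and 0.408 FPKM in the control library, and Thbd, thrombomodulin, had 2.85 FPKM in the Alb-Cre library and 1.20 FPKM in the control library. Without the added 1 FPKM these and both granzyme genes would exceed 2-fold. Vtn, the gene of the adhesion protein vitronectin, had 1310 FPKM in the Alb-Cre library and 1612 FPKM in the control library. Plasma protease inhibitors outside the family had 16 measured genes, 0 higher and 1 lower, with a median of 0.15. The lower gene was Mug2, a murinoglobulin, with 3.45 FPKM in the Alb-Cre library and 52.4 FPKM in the control library (-3.58). Measured serpins thus had 9 of 27 genes at 2-fold or more, where 5.58% of all measured genes were. The plasma inhibitors outside the family had 1 of 16 and the target proteases 0 of 22. Of the 9 called serpins 6 were under 10 FPKM in a library, and 3 of the 17 at 10 FPKM or more in both were called. With near-identical copies summed, 3 of 20 serpins were higher and 3 lower. The difference between the shares of these gene groups was not tested.

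Known regulators and companions of liver serpins were set beside them. Of 18 measured transcription factors described as acting on serpin genes, 1 was higher and 0 lower, and the median was -0.23. For these and for the acute phase genes below, the shares over all measured genes are 3.75% higher and 1.83% lower. The higher factor was Cux2, at 1.45 FPKM in the Alb-Cre library and 0.0962 FPKM in the control library. It passed the minimum only through the Alb-Cre library, so that passing it favours a difference. Cebpa, which drives many genes of secreted liver proteins, had 153 FPKM in the Alb-Cre library and 273 FPKM in the control library (-0.83). Nr3c1, the glucocorticoid receptor gene, had 16.4 FPKM in the Alb-Cre library and 21.7 FPKM in the control library. Acute phase genes, the class to which Serpina3n belongs, had 3 higher among 21 measured genes (Lcn2, Cd14 and Orm2) and 1 lower (Saa4), with a median of -0.03. The gene lists share members, so their counts are not separate observations. Cd14 is also among the higher macrophage markers, and Lcn2 among the glucocorticoid genes given below. In the promoter table of RefSeq on GRCm38.p6, which spans 250 bases before to 50 after each annotated start, 21 of the 27 measured serpins had an entry. The FoxO core motif GTAAACA, searched on both strands, was in 0 of these 21 and in 4.05% of all 27025 genes with a promoter. The STAT5 motif TTCNNNGAA was in 4 of them (Serpina11, Serpina3f, Serpina3g and Serpinb6a) and in 9.55% of all genes. Full palindromic consensus motifs of HNF1 and of the glucocorticoid receptor, searched without mismatches, were each in 0 of the 21 and in 0.0111% of all genes. A match describes letters only, and a motif not found in these windows bears on no factor.

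**Figure D5:**
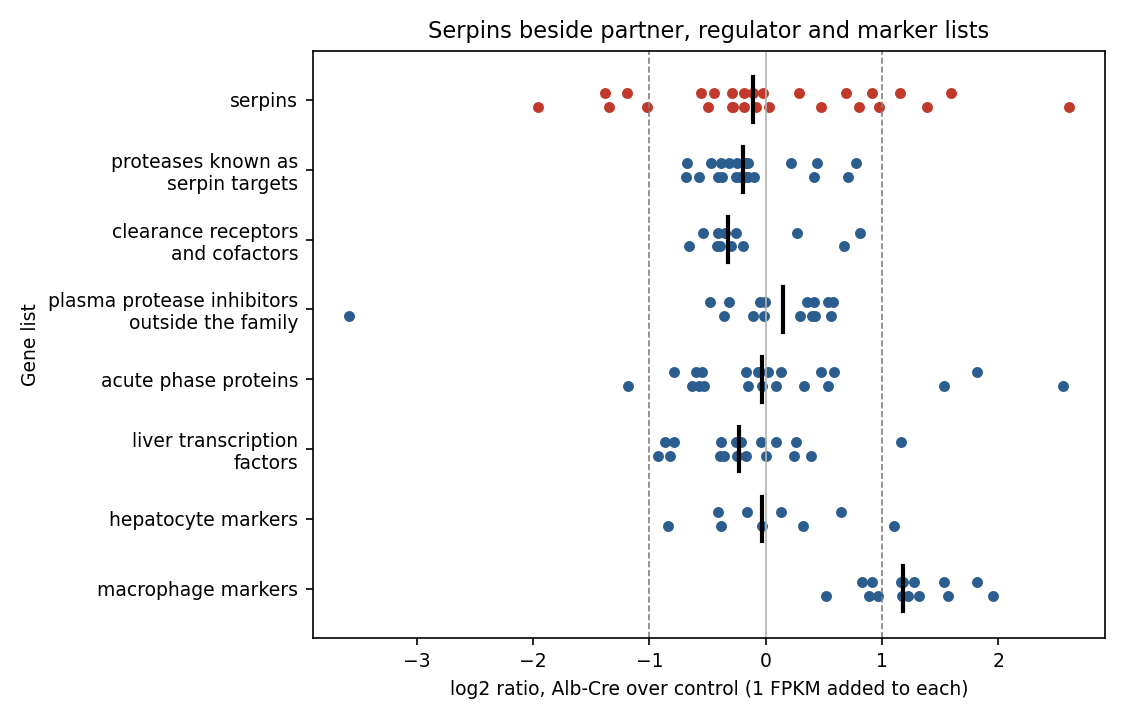
Log2 ratios, Alb-Cre over control, of the measured serpins (red, top row) and of 7 gene lists (blue), each point 1 gene, with black bars at the medians and dashed lines at 2-fold. Serpins reach from -1.96 to 2.61, the target proteases stay within 2-fold with 1 FPKM added, and macrophage markers have a median of 1.19.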

How the data were processed

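Liver mRNA was sequenced as 1 library per genotype, each a pool of 4 livers, per the labels. The submitters' processing notes name FastQC, TopHat2 2.0.8, Cuffdiff 2.1.1 and mm10, with no role or order; the annotation and settings, the strand protocol and the number of reads are not given in the sources used. For each gene and library the authors deposited an FPKM value in a Cuffdiff layout, per the file headers, with the library scaling not stated. A p-value and a q-value of the authors stand beside it, per the file headers; these were copied, not recomputed. Members and gene lists were chosen with earlier results of these data known. Every measured member is named, with at most a few genes of each other list; some of those were chosen after their values were seen. Agt, a serpin by fold, is outside the symbol rule. A gene that matches the rule is not reported here and was left out of the counts and medians of serpins. The fragment worth of 1 kb was the median of the lowest step in 143 (Alb-Cre) and 137 (control) genes with 1 transcript, taken 150 bases shorter, a correction and a search window chosen after the values were seen; approximate fragments use each gene's longest transcript. Positions are GENCODE vM21 on mm10, counted from 1; all 62 rows overlapped a GENCODE position of their gene. Shared stretches of 50 and 100 bases were counted on both strands over all GENCODE transcripts. Alternatives were pseudocounts of 0.1 and 5 FPKM, minimums of 0, 5 and, in both libraries, 1 FPKM, 2 scalings, any status, limits of 1.5-fold and 4-fold, and copies summed or left out. The code for ratios and calls was tested on simulated data, which gives no error for a call. Python 3.11.15, pandas 2.3.3, numpy 2.4.6, matplotlib 3.10.9 and mafft 7.526 were used.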

Additional observations from a re-analysis of the deposited data

How the results depend on the processing

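Each genotype is 1 pooled library, so no spread between mice can be had and no value was tested; counts were called the same within 1.5 times, and medians where they kept their sign and moved by 0.2 or less. Of the 27 measured serpins, 4 higher became 2 with 5 FPKM added, 8 at a 1.5-fold limit and 1 at a 4-fold limit. With 0.1 FPKM added they were 5, as Serpina3f reached 1.45. The 5 lower became 3 with 5 FPKM added, 0 at a 4-fold limit, 3 with copies summed and 3 without the Serpina1 and Serpina3 copies. Without the added 1 FPKM, Serpina4-ps1 was 4.07-fold lower. The 2 alternatives that drop the copies or require 1 FPKM in both libraries were chosen after seeing the data. The median of -0.11 over all serpins turned to 0.0120 with rescaled libraries and 0.0270 with centred ratios, as that of all genes turned to 0.0401 and 0.0714. Clade A's median was -0.42 with copies summed and -0.42 without them. Clade B's median of 1.38 became 1.79 with 0.1 FPKM added, 0.58 with 5 FPKM added, 0.93 with no minimum, 1.59 with a minimum of 5 FPKM and 1.04 with 1 FPKM in both libraries. Over all genes, 428 higher became 769 and 178 with 0.1 and 5 FPKM added, 283 with a minimum of 5 FPKM, 1012 and 117 at 1.5-fold and 4-fold, and 251 with 1 FPKM in both libraries; 209 lower became 661 and 45 at 1.5-fold and 4-fold. With 5 FPKM added, 4 serpins called at 2-fold were no longer so (Serpina12, Serpina3g, Serpinb6b and Serpine2), which follows from their low levels. Serpina10, Serpina1a and Serpinf1, all near 0, turned positive under both scalings. No paired analysis was possible because each genotype has 1 library.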

Other observations

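Below 1 FPKM, 10 serpins had status OK, at 0.0301 to 0.315 FPKM in the Alb-Cre library and 0.00669 to 0.850 FPKM in the control library. Serpina9, a serpin known from germinal centre B cells, was listed at 0.315 FPKM in the Alb-Cre library and 0.850 FPKM in the control library. Serpina5, the protein C inhibitor, which human liver secretes but mouse liver hardly makes, had 0.0301 FPKM in the Alb-Cre library and 0.104 FPKM in the control library. Serpini1, neuroserpin, had 0.171 FPKM in the Alb-Cre library and 0.0961 FPKM in the control library. Of the 24 serpins the authors did not test, 14 were listed at 0 in both libraries and the others reached at most 0.0578 FPKM in the Alb-Cre library and 0.0729 FPKM in the control library. They include 21 of the 27 clade B rows, among them the squamous cell carcinoma antigen-like genes Serpinb3a to Serpinb3d.

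Genes induced by glucocorticoids, the hormones that Serpina6 carries in plasma, had 12 measured members, of which 6 were higher by 2-fold or more and 0 lower, against 3.75% and 1.83% of all measured genes. Their median log2 ratio was 0.76. Pck1, also on this list, had a failed status, listed at 0 in the Alb-Cre library and at 986 FPKM in the control library. The list was chosen with earlier results of these data known. Among the 6, Cdkn1a (5.49 FPKM in Alb-Cre, 0.761 FPKM in control) passed the minimum only through the Alb-Cre library. Tat was also the higher hepatocyte marker, and Lcn2 was also an acute phase gene above. The highest were Mt2 (294 FPKM in Alb-Cre, 14.1 FPKM in control), Sgk1 (146 FPKM in Alb-Cre, 9.75 FPKM in control) and Mt1 (642 FPKM in Alb-Cre, 73.5 FPKM in control), all of which respond to other signals too. Fkbp5 (16.7 FPKM in Alb-Cre, 12.4 FPKM in control), Per1 (12.8 FPKM in Alb-Cre, 11.2 FPKM in control) and Tsc22d3 (66.2 FPKM in Alb-Cre, 64.0 FPKM in control) lay within 2-fold, as did Klf9 (25.4 FPKM in Alb-Cre, 32.7 FPKM in control) and Dusp1 (69.9 FPKM in Alb-Cre, 86.9 FPKM in control), which were below 0.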
